A study of Homo sapiens with 3 samples.

Results

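The results concern capped RNA 5′ ends that carried a deletion of 1 or 2 bases after Cas9 cutting just downstream of a transcription start. With earlier results of these data known, they were chosen by deletion length, in every targeted promoter with 50 or more such ends. This gave 12507 of the 82114 edited ends of the series (15.2%), of which 10257 had lost 1 base (82.0%) and 2250 had lost 2. They came from 9 of the 13 targets and from 138 distinct alleles, 69 of each length, where an allele is a pair of first and last deleted base. An allele had 1 end in 39 cases and 10 or more ends in 53.

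The cells were HEK293T, an established human embryonic kidney line. They were transfected in 2 rounds with Cas9 protein bound to a guide RNA, with 1 guide per promoter, and total RNA was taken afterwards. In the CRISPR-Cap assay the cap is removed, an RNA oligonucleotide with 8 random bases is ligated to the freed 5′ end, and gene-specific priming reads from the start through the edited sequence. Edited and unedited ends came from the same transfected cultures, so the unedited ends were the reference, and untransfected cells were not analysed here. The labels name 2 libraries, but the deposited list pools them. There is therefore no replicate spread and no p-value below. Every interval is a 95% interval that covers counting error only, and it is too narrow if lines of the list are PCR copies. Nothing says if lines are single molecules.

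Cas9 cuts both strands near the PAM, and end joining by the cell often leaves a loss of very few bases at the cut. RNA polymerase II chooses its start from signals around the start itself and from elements on either side, including elements within the first transcribed bases. Short deletions downstream of a start therefore ask how start choice responds when almost all of the sequence, and the start base itself, is kept.

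TMED9, which sorts cargo between endoplasmic reticulum and Golgi, held 7693 of the ends (61.5%), and there these losses made up 56.0% of all edited ends. RBM4, a splicing regulator, had 1806 ends (6.78% of its edited ends). The start labelled RBM4 is annotated to RBM14, a nuclear RNA-binding coactivator. LETMD1, a mitochondrial inner membrane protein, had 1209 (18.2%), and NDUFV3, an accessory subunit of respiratory complex I, had 783 (16.6%). C1orf63, now named RSRP1, had 354 (6.60%), and C19orf43, now TRIR, an RNase that binds telomerase RNA, had 352 (1.81%). IRF1, a transcription factor of interferon responses, had 122 (13.9%). HSF1, the master regulator of the heat shock response, had 108 (10.98%), and ECI1, an isomerase of mitochondrial fatty acid oxidation, had 80 (4.28%). ECI1 lay just inside the limit of 50 ends and HIST1H1D, with 43, just outside. The HIST1H1D main start took 58.1% of those 43 ends, and 55.6% was expected. EDEM2 had 23 such ends, TXNRD2 8 and SOCS1 3. Unedited ends numbered from 31 at IRF1 to 29727 at C19orf43, so the IRF1 values are the least precise.

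The most frequent alleles are printed because the losses differ by 1 base within windows of 30 bases, on hg38 and in the direction of transcription. Capitals mark the deleted bases at the deposited placement. Some losses lie beside equal letters and could be placed elsewhere with the same sequence left, such as T at LETMD1, T at RBM4, C at IRF1 and G at C19orf43. The letters come from RefSeq promoter sequences of GRCh38.p14 and from GENCODE release 29 transcripts, with ECI1 from RefSeq only and TMED9, C1orf63 and C19orf43 from GENCODE only. HSF1 is given by position only.

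The TMED9 window is chr5:177592203-177592232 on the plus strand and begins at the main start, the position with the most unedited ends. The loss of G at 177592217 had 5193 ends, that of C at 177592219 had 1256, that of GG at 177592217 to 177592218 had 1101, and that of CT at 177592219 to 177592220 had 65. The last is shown because it pairs with the second. The G of the first allele can be either of 2 adjacent G, which leave the same sequence. The G and GG alleles lie at the annotated start codon, and all 4 lie in sequence annotated as coding in 1 of 2 transcripts. The loss of G still leaves the letters ATG there, and the loss of GG does not.
TMED9 G: aggtggagcaagatGgctgtggagctgggc
TMED9 C: aggtggagcaagatggCtgtggagctgggc
TMED9 GG: aggtggagcaagatGGctgtggagctgggc
TMED9 CT: aggtggagcaagatggCTgtggagctgggc

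The NDUFV3 window is chr21:42893321-42893350 on the plus strand. The loss of T at 42893335 had 225 ends, that of TG at 42893335 to 42893336 had 165, and that of A at 42893334 had 136. All 3 remove part of the annotated start codon of 2 transcripts, and they lie 23 or 24 bases from the main start at 42893311.
NDUFV3 T: cgctgtcaccgccaTggctgccccgtgttt
NDUFV3 TG: cgctgtcaccgccaTGgctgccccgtgttt
NDUFV3 A: cgctgtcaccgccAtggctgccccgtgttt

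The RBM4 window is chr11:66616638-66616667 on the plus strand, in annotated 5′ untranslated sequence, with the main start at 66616630. The loss of C at 66616652 had 640 ends, that of G at 66616653 had 562, that of T at 66616654 had 247, and that of GT at 66616653 to 66616654 had 121.
RBM4 C: ggaggactgccggtCgttcggacgtcttgc
RBM4 G: ggaggactgccggtcGttcggacgtcttgc
RBM4 T: ggaggactgccggtcgTtcggacgtcttgc
RBM4 GT: ggaggactgccggtcGTtcggacgtcttgc

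The LETMD1 window is chr12:51048327-51048356 on the plus strand, untranslated, and begins at the main start. One loss, of T at 51048341, made up 93.1% of the short deletions of LETMD1 with 1126 ends. The losses of CT at 51048340 to 51048341 and of TC at 51048342 to 51048343 had 37 and 29 ends.
LETMD1 T: ctcttctctcccgcTtctctcgctgtgaag
LETMD1 CT: ctcttctctcccgCTtctctcgctgtgaag
LETMD1 TC: ctcttctctcccgctTCtctcgctgtgaag

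The C1orf63 window is chr1:25247424-25247453 on the minus strand, untranslated, and begins 1 base downstream of the main start at 25247454. The loss of G at 25247439 had 118 ends, that of A at 25247437 had 63, that of TA at 25247437 to 25247438 had 51, and that of GT at 25247438 to 25247439, shown as the partner of the first, had 29.
C1orf63 G: gtgcgcatccggacGtaggaggtggaggtt
C1orf63 A: gtgcgcatccggacgtAggaggtggaggtt
C1orf63 TA: gtgcgcatccggacgTAggaggtggaggtt
C1orf63 GT: gtgcgcatccggacGTaggaggtggaggtt

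The C19orf43 window is chr19:12734626-12734655 on the minus strand. It lies in sequence annotated as coding in 4 transcripts, and the alleles lie over 100 bases from the main start at 12734742. The loss of GA at 12734640 to 12734641 had 79 ends, that of G at 12734636 had 74, that of GG at 12734636 to 12734637 had 42, and that of C at 12734639 had 37. The last was added after its values were seen.
C19orf43 GA: ggctgcccgagggaGAcgggcggagcctca
C19orf43 G: ggctgcccgagggagacggGcggagcctca
C19orf43 GG: ggctgcccgagggagacgGGcggagcctca
C19orf43 C: ggctgcccgagggagaCgggcggagcctca

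The IRF1 window is chr5:132490744-132490773 and the ECI1 window chr16:2251563-2251592, both on the minus strand and untranslated. At IRF1 the loss of C at 132490759 had 85 ends, that of CT at 132490758 to 132490759 had 14, and that of T at 132490757 had 13. At ECI1 the loss of G at 2251578 had 31 ends, that of GT at 2251577 to 2251578 had 15, and that of T at 2251576 had 12.
IRF1 C: agagctcgccactcCttagtcgaggcaaga
IRF1 CT: agagctcgccactcCTtagtcgaggcaaga
ECI1 G: cctttatcccgcgcGttgcggtcaagatgg
ECI1 GT: cctttatcccgcgcGTtgcggtcaagatgg

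At HSF1 the losses at 144291614, at 144291613 and at 144291611 to 144291612 on chromosome 8 had 42, 23 and 22 ends.

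Letters of known elements were searched on both strands in these windows, before and after removal of the capitals, in the alleles above that are among the 3 most frequent of a target or have 100 or more ends. The searched letters were TATAAA of the TATA box, CCAAT of NFY, GGGCGG of SP factors, CGGAAG of ETS factors, GCATGCG of NRF1, TGACGT of CREB, ATGGCG of YY1, ACTACA of ZNF143 and GGTAAG of the U1 snRNP. The short YY1 core ATGG, which overlaps ATGGCG, was added after the sequences were seen. ATGG stood in the TMED9 window and was absent after the loss of G or of GG, while the loss of C kept it. In NDUFV3 all 3 losses removed ATGG and also ATGGCG on the opposite strand. The GC box GGGCGG in C19orf43 was kept by the loss of GA and removed by the losses of G and of GG. ECI1 kept its ATGG in the 3 alleles searched, and the other windows held none of these letters. Among 35116 RefSeq promoters, windows of the same length starting 10 bases after the annotated start held ATGG in 17.7%, GGGCGG in 4.87% and ATGGCG in 3.22%. The printed windows do not all lie at that distance. The TMED9 window begins at the main start, and the C19orf43 window lies much farther from its main start, in coding sequence. These matches describe letters only.

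The main start took a smaller share of the ends on alleles with short deletions in most of the targets. Only starts lying 8 or more bases upstream of the deletion were compared, in edited and unedited ends alike and allele by allele. The expected share is that of the unedited ends at the same positions. Just 128 of the short-deletion ends (1.02%) lay closer than that. The main-start share was lower, with an interval below 0, in 6 of 9 targets (66.7%), namely TMED9, NDUFV3, C1orf63, C19orf43, IRF1 and ECI1. It was higher in 1 (11.1%), LETMD1. The same count was 9 of 9 lower (100%) with deletions of 3 to 9 bases and 7 of 9 (77.8%) with 10 or more. The median change over the 9 targets was −11.9 percentage points.

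At TMED9 the main start at 177592203 took 64.5% of the 7553 matched ends, against 79.1% expected, a change of −14.6 points (−16.8 to −12.4). Its most frequent allele held 67.5% of the short-deletion ends of TMED9. Without that allele the change was −22.5 points (−25.3 to −19.8), and with equal weight for alleles of 10 or more ends it was −26.4 (−31.7 to −21.01). At NDUFV3 the main start took 13.5% of 756 ends against 25.0%, or −11.5 points (−15.3 to −7.59). NDUFV3 spreads its unedited starts over a wide region, so its main start holds a smaller part than that of TMED9. C1orf63 went from 78.8% expected to 67.0% of 348 ends, −11.9 points (−17.3 to −6.52). C19orf43 went from 26.1% to 12.3% of 350 ends, −13.8 points (−17.3 to −10.3). At NDUFV3 and C19orf43 the choice of main start was narrow, and their lower calls rest on it. NDUFV3 had 197 unedited ends at its main start and 187 at 42893272, and C19orf43 had 7722 and, at 12734663, 7389. The share at 12734663 rose by 9.89 points (5.06 to 15.05). At 42893272 it was 25.0% with 2 bases lost, against 23.7% expected (1.32 points, −4.06 to 7.05). After the 1-base losses of T and of A it was 23.9% of 218 ends and 20.6% of 131.

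IRF1 had the widest difference, from 57.7% of 26 matched unedited ends to 22.6% of 106 edited ends, −35.1 points (−55.6 to −14.5). ECI1 went from 55.7% to 42.5% of 80 ends, −13.2 points (−24.5 to −1.82). With at least 12 retained bases its interval included 0 (−9.97, −22.6 to 2.66). Both targets rest on few ends, and their intervals are wide.

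At RBM4, HSF1 and LETMD1 no interval lay below 0. The RBM4 main start took 75.9% of 1804 edited ends and 75.7% was expected, a difference of 0.27 points (−1.93 to 2.47). HSF1 had 47.0% of 66 ends against 50.01%, a difference of −3.04 points (−15.5 to 9.39). With 6 retained bases allowed, the HSF1 change was −12.9 points (−22.8 to −3.06). LETMD1 had 61.4% of 1176 ends against 57.0%, a rise of 4.42 points (0.03 to 8.80). The LETMD1 rise did not hold in other settings: its interval included 0 without a filter on rare positions (4.23 points), with positions of 50 or more ends (3.47) and with equal weight for alleles (0.18), and the value was −1.16 points with at least 12 retained bases and −5.42 points without its most frequent allele.

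**Figure D1:**
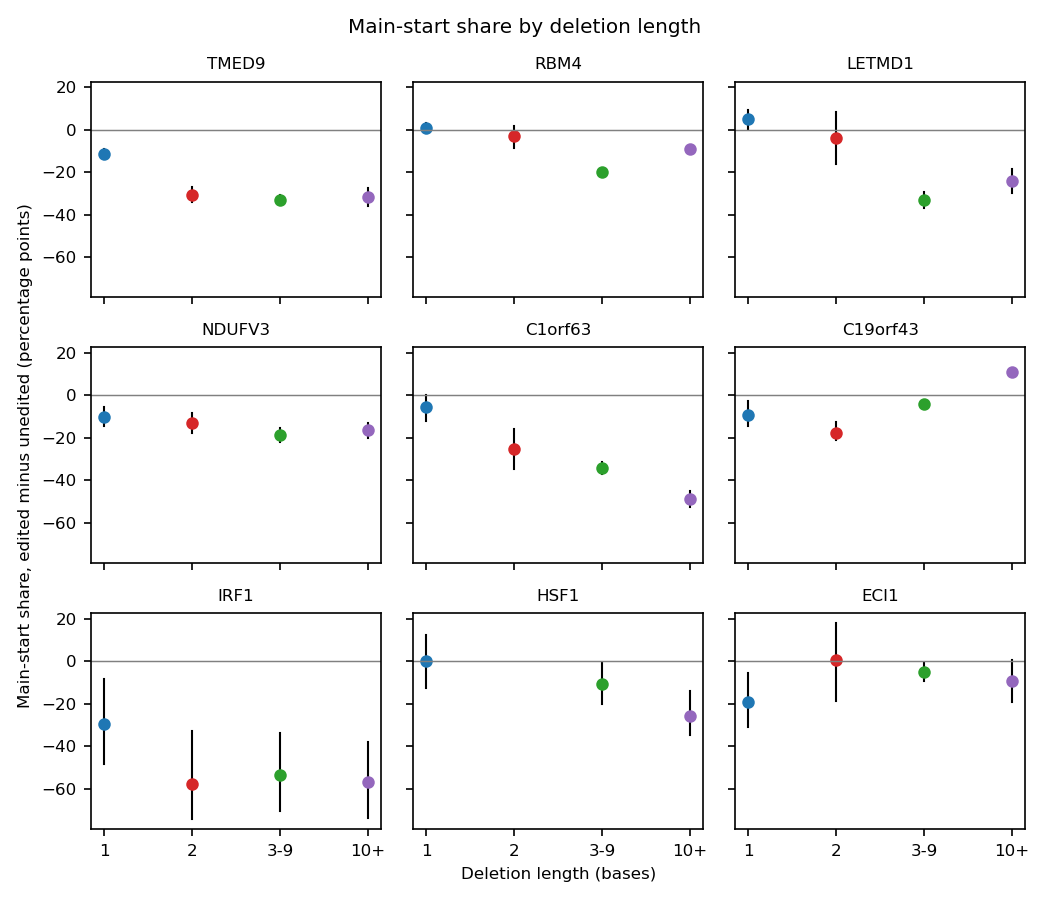
Change in main-start share (vertical axis, edited minus matched unedited, percentage points) for deletions of 1, 2, 3 to 9 and 10 or more bases (horizontal axis) in each of the 9 targets; points are values, lines are 95% score intervals for counting error, and a class with under 20 matched ends is not drawn. At RBM4 and LETMD1 the values for 1 and 2 bases lie near 0 while those for 3 to 9 bases lie at −20.0 and −33.4, and C19orf43 runs the other way, down to −17.6 with 2 bases.

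The loss of a second base went with a lower main-start share in several targets. At TMED9 the change was −11.6 points with 1 base (6384 ends) and −30.7 with 2 (1169 ends), a difference of −19.1 points (−22.1 to −16.0). At C1orf63 it was −5.54 with 1 base, an interval that reached 0.48, and −25.3 with 2, a difference of −19.7 points (−30.6 to −8.91). At C19orf43 it was −9.32 and −17.6, a difference of −8.30 points (−15.3 to −1.3). At IRF1 it was −29.8 and −57.7, a difference of −27.9 points (score interval −38.2 to −9.75). None of the 20 matched 2-base ends of IRF1 used the main start, which allows a share of up to 15%. In all, the 2-base change was below the 1-base change with an interval below 0 in 4 of 8 targets (50%) and above it in none.

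At the other targets the difference between 2 bases and 1 base had an interval that included 0. NDUFV3 had −10.2 points with 1 base and −13.2 with 2, a difference of −3.06 (−7.91 to 1.78). RBM4 had 0.87 and −3.19 points, a difference of −4.06 (−9.80 to 1.68). LETMD1 had 4.91 and −3.94, a difference of −8.85 (−21.2 to 3.53). ECI1 had −19.3 with 1 base and 0.34 with 2, a difference of 19.6 on 55 and 25 ends (−3.61 to 42.9). HSF1 had only 4 matched ends with 2 bases lost and was not compared.

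Some pairs of alleles begin at the same base, at the deposited placement, and differ only in whether the next base is also lost. They hold the distance from start to deletion fixed. There were 17 such pairs with 10 or more matched ends on both sides, in 7 targets. The 2-base allele had the lower share in 12, with a median difference of −5.82 points, an interval below 0 in 4 (23.5%) and above 0 in 1 (5.88%). At TMED9 the main-start share was 68.4% (67.1 to 69.7) after the loss of G and 50.3% (47.3 to 53.3) after the loss of GG, a difference of −18.1 points (−21.4 to −14.9). It was 63.6% after the loss of C and 26.2% (17.02 to 37.95) after the loss of CT, a difference of −37.5 points (−47.0 to −25.4). The printed TMED9 lines show that each of these steps removes 1 further letter.

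At C1orf63 the share was 75.7% after the loss of G and 48.1% after the loss of GT, a difference of −27.5 points (−46.2 to −7.68) on 115 and 27 ends. At IRF1 it was 28.8% of 73 ends after the loss of C and 0 of 13 after the loss of CT, which allows up to 23.1%. The difference was −28.8 points (−40.01 to −4.20). The pair that went the other way was at RBM4 from base 66616651, with 65.3% of 49 ends after 1 base and 87.9% of 33 after 2, a difference of 22.6 points (3.35 to 38.4). The other 4 pairs of RBM4 had values from −16.3 to −1.65 points and intervals that included 0.

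**Figure D2:**
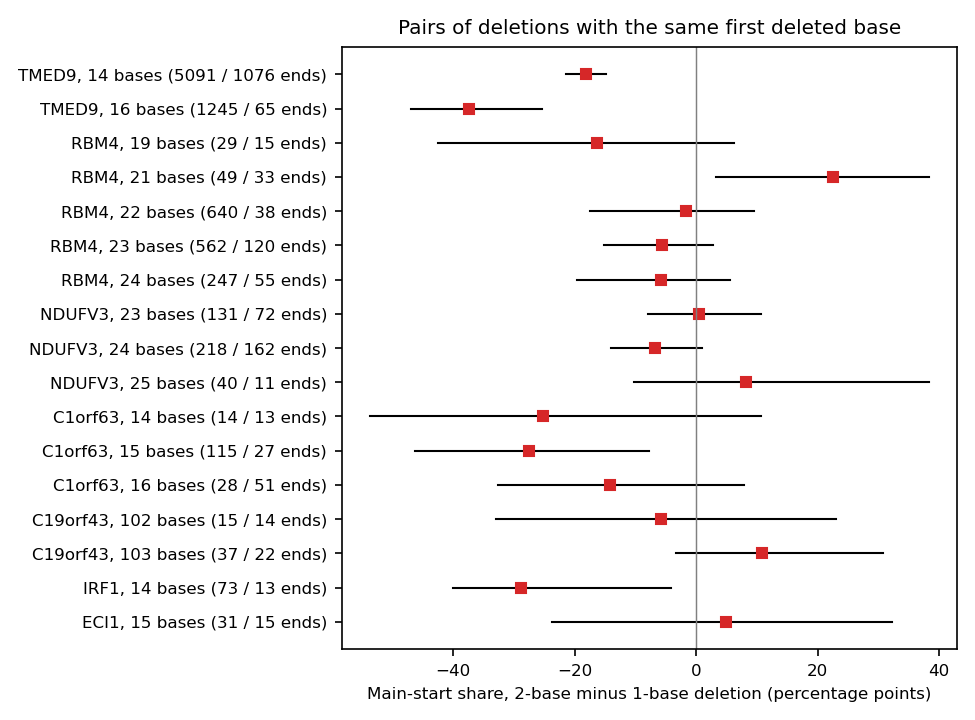
Main-start share of the 2-base allele minus that of the 1-base allele beginning at the same base (horizontal axis, percentage points, 95% score interval) for 17 pairs; labels give the target, the bases from main start to deletion and the matched ends of the 1-base and 2-base allele. Both TMED9 pairs lie left of 0 (−18.1 and −37.5), and RBM4 at 21 bases lies right of it (22.6).

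The alleles of a target also differed in the size of the change. Among alleles with 30 or more matched ends, 17 of 32 short deletions had a lower main-start share (53.1%) and 1 a higher one. Over deletions of all lengths, 246 alleles, the shares were 51.6% lower and 11% higher, so the count for short deletions was near that background. The background depends on the mix of targets, since it held 67 C19orf43 deletions of 10 or more bases. Of those 67, 5 were lower and 24 higher. The lower count for short deletions was 9 of 19 with 1 base and 8 of 13 with 2. With 3 to 9 bases it was 65 of 95 (68.4%). By target, all 5 TMED9 alleles were lower, as were all 10 of its deletions of 3 to 9 bases. At NDUFV3 it was 6 of 7 against 12 of 13 with 3 to 9 bases, at C1orf63 2 of 3 against 12 of 13, and at C19orf43 3 of 4 against 11 of 26. At RBM4 it was 0 of 8 against 15 of 22, and at LETMD1 0 of 2 against 4 of 5. IRF1 had 1 of 1 lower and no allele of 3 to 9 bases with enough ends. HSF1 and ECI1 had 1 such allele each, neither of them lower.

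At TMED9 the loss of G changed the share by −10.8 points (−13.0 to −8.40) and the loss of C, 2 bases farther along, by −15.1 (−18.4 to −11.8). At NDUFV3 the loss of T left 19.7% of 218 ends at the main start, a change of −5.21 points (−10.9 to 1.26). The loss of the neighbouring A left 10.7% of 131 ends, a change of −14.2 (−19.5 to −7.18). The loss of TG left 12.96% of 162 ends, −11.97 points (−17.3 to −5.28).

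At C19orf43 the loss of GA left 6.33% of 79 ends at the main start, −19.8 points (−23.4 to −12.1). The loss of C left 2.70% of 37 ends, −23.4 points (−25.7 to −12.3), and the loss of GG left 4.88% of 41 ends, −21.2 (−24.8 to −9.94). The loss of G alone left 20.3% of 74 ends, −5.82 points (−13.4 to 4.71). The allele with the smallest change of these 4 lacks the letters GGGCGG, as does the GG allele, while the GA allele keeps them.

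At RBM4 the 4 most frequent alleles had 77.97% of 640 ends (loss of C), 74.02% of 562 (G), 78.5% of 247 (T) and 68.3% of 120 (GT) at the main start. The expected share was 75.7%, and the changes ran from −7.34 points (−16.2 to 0.37) for GT to 2.87 (−2.75 to 7.63) for T. At C1orf63 the loss of G changed the share by −3.20 points (−12.02 to 4.07), that of A by −10.6 (−23.02 to −0.20) and that of TA by −18.1 (−31.9 to −5.68). The loss of T at LETMD1 gave 5.11 points (0.67 to 9.53) and 93.1% of the short-deletion ends of that target were of this allele.

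**Figure D3:**
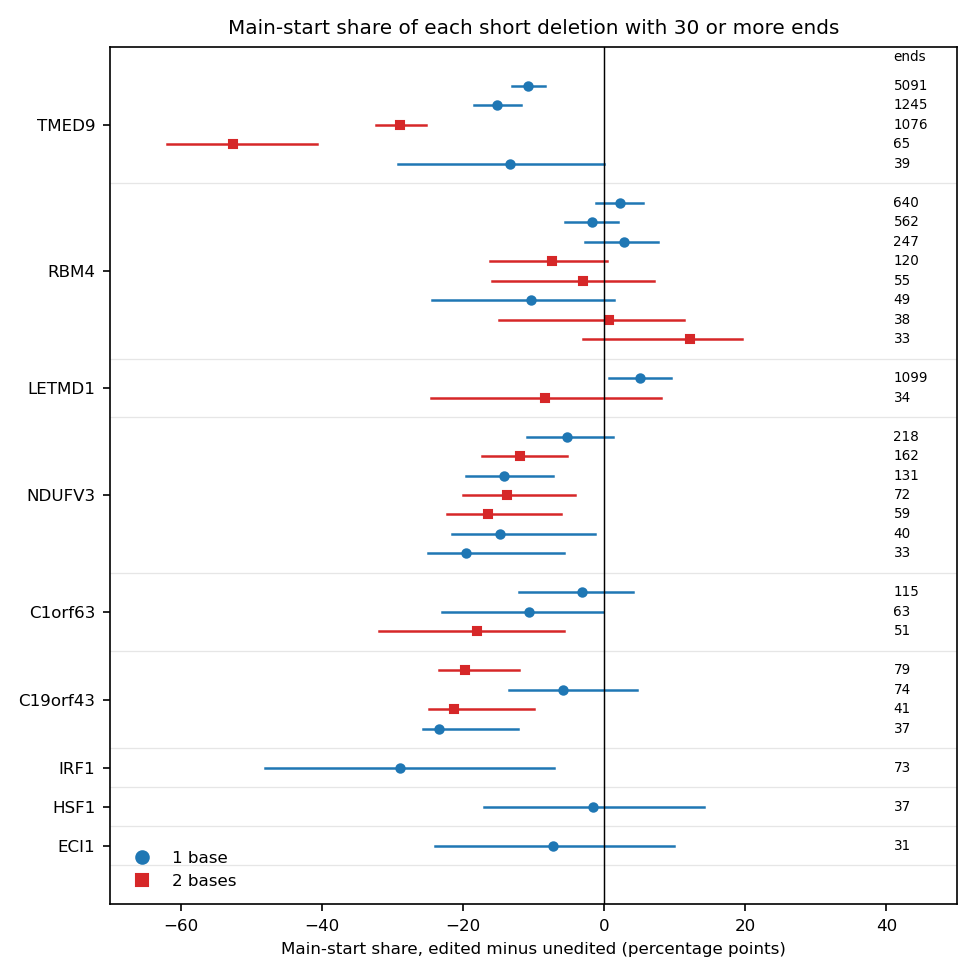
Change in main-start share (horizontal axis, edited minus matched unedited, percentage points, 95% score interval) for each of the 32 short deletions with 30 or more matched ends, grouped by target; circles are 1-base and squares 2-base losses, with matched ends at the right. All TMED9 alleles lie left of 0, all 8 RBM4 intervals include 0, and the TMED9 loss of CT lies farthest left (−52.6).

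The positions that rose differed between promoters. For each target the position with the largest matched gain and the largest matched loss among positions with 20 or more matched ends is given. These positions were picked for the size of their change with 1 or 2 bases lost, so their values, also beside those of longer deletions, are a description. At NDUFV3 the gain was at 42893307, 4 bases upstream of the main start, from 3.42% expected to 16.3% of 756 ends (13.8 to 19.1), a rise of 12.8 points (9.96 to 15.8). It held 18.3% after the loss of T, 15.3% after that of A and 12.96% after that of TG. With deletions of 3 to 9 bases the same position held 3.84% and with 10 or more bases 1.74%. The neighbouring positions 42893306 and 42893305 rose too, from 0.25% expected to 2.38% and to 1.98%. Each of these had only 2 unedited ends. Position 42893309 fell from 7.22% to 3.84%.

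At TMED9 the gain was at 177592199, also 4 bases upstream of the main start, from 8.20% expected to 10.7% (10.03 to 11.4), a rise of 2.51 points (0.96 to 3.91). It held 9.05% with 1 base and 19.8% with 2 bases lost. By allele it held 8.43% after the loss of G, 11.7% after C, 17.6% after GG and 47.7% of 65 ends after CT, so that after CT it exceeded the main start. With deletions of 3 to 9 bases it held 20.7%.

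At C1orf63 the gain was at 25247485, 31 bases upstream, from 4.72% to 10.9% of 348 ends (8.06 to 14.6), a rise of 6.20 points (3.09 to 10.04). It held 7.20% with 1 base, 18.8% with 2 and 22.5% with 3 to 9. By allele it held 3.48% after the loss of G, 12.7% after A and 17.6% after TA.

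C19orf43 moved the other way. Its gain was at 12734663, 79 bases downstream of the main start and in a second cluster of starts nearer the deletions, from 25.0% to 34.9% of 350 ends (30.05 to 39.99), a rise of 9.89 points (5.06 to 15.05). It held 26.7% with 1 base and 41.8% with 2 bases lost, so the rise was mainly with 2 bases. After the loss of GA this position held 54.4% of 79 ends, and after the loss of G 22.97% of 74. With 3 to 9 bases lost it held 33.9%, close to the 34.9% of the short deletions, and with 10 or more bases 16.5%.

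Gains were small or thinly covered elsewhere. At RBM4, 66616626 rose from 10.05% to 11.8%, 1.75 points (0.18 to 3.46). At the same target 66616616, 14 bases upstream of the main start, fell from 2.38% to 1.22% (−1.16 points, −1.71 to −0.46). The 2 lengths differed there, with 0.65% after 1 base lost. After 2 bases it held 4.46% of 269 ends, a rise of 2.08 points (0.16 to 5.27). With deletions of 3 to 9 bases it held 12.7%. At LETMD1 the main start itself had the largest gain, and 51048332, 5 bases downstream, fell from 8.41% to 4.09% (−4.32 points, −6.64 to −2.18). At LETMD1 51048318, 9 bases upstream, rose from 3.19% to 6.20% (3.02 points, 1.12 to 4.84).

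At ECI1 the gain was at 2251587, 6 bases downstream, from 10.3% to 20.0% of 80 ends (9.75 points, 2.12 to 19.97). At HSF1 it was at 144291593, 12 bases upstream, from 5.48% to 10.8% of 93 ends (5.27 points, 0.07 to 13.3), and the largest loss, at 144291604, was −7.38 points with an interval that included 0 (−13.7 to 2.49). At IRF1 132490813, 40 bases upstream, held 18.7% of 107 edited ends and 1 unedited end, a difference of 14.8 points that included 0 (−1.63 to 23.8).

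**Figure D4:**
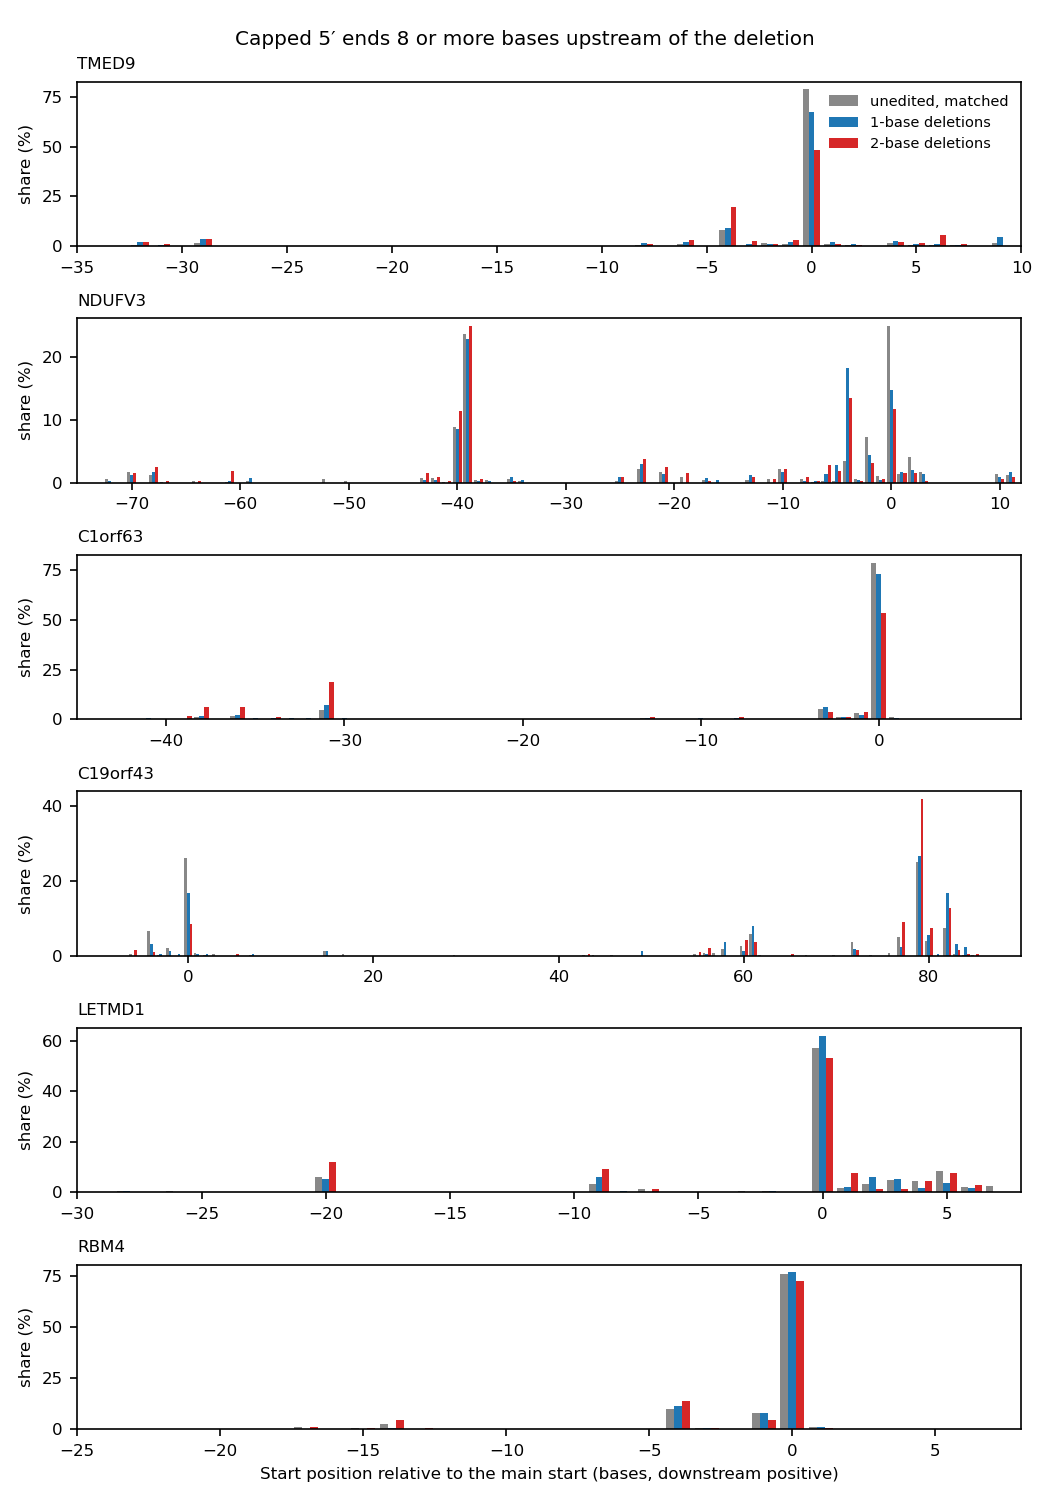
Share of matched 5′ ends (vertical axis, percent, each panel with its own scale) by start position relative to the main start (horizontal axis, bases, downstream positive) in 6 targets, for unedited ends (grey), 1-base (blue) and 2-base deletions (red). NDUFV3 shows the gain at −4 with both lengths (18.3% and 13.6%) and TMED9 the gain at −4 mainly with 2 bases (19.8%). C19orf43 shows the gain at 79, also mainly with 2 bases (41.8%, against 26.7% with 1 base).

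The mean start position needs no choice of main start, and its interval excluded 0 in fewer targets than that of the main-start share. The mean moved upstream in 3 of 9 targets with intervals above 0 (33.3%): TMED9 by 1.27 bases (0.81 to 1.74), C1orf63 by 4.06 (2.40 to 5.73) and IRF1 by 15.03 (7.42 to 22.6). They moved downstream in 1 (11.1%), C19orf43, by 16.6 bases (13.3 to 19.9 bases in size). RBM4 had −0.09 bases (−0.29 to 0.11), LETMD1 0.11 (−0.62 to 0.84), NDUFV3 1.98 (−0.12 to 4.09), HSF1 2.73 (−0.31 to 5.76) and ECI1 −0.59 (−1.40 to 0.23). With 3 to 9 bases the count was 6 of 9 upstream (66.7%).

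The 2-base losses moved ends farther upstream than the 1-base losses at TMED9 (2.18 against 1.11 bases), C1orf63 (9.58 against 1.44), NDUFV3 (4.82 against −0.14), RBM4 (1.15 against −0.31) and IRF1 (28.3 against 11.98), each with an interval of the difference above 0. At C19orf43 they moved ends farther downstream (−21.1 against −11.3 bases, a difference of −9.82, −16.3 to −3.29). At LETMD1, HSF1 and ECI1 the interval of that difference included 0. At RBM4 the 1-base losses alone had a mean start slightly downstream of the unedited one (−0.31 bases, −0.48 to −0.13).

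Starts 8 to 19 bases from the deletion had a smaller share of ends in 5 of 9 targets (55.6%), and a larger one in 1 (11.1%). For the most frequent allele this range holds the main start in all targets except RBM4, NDUFV3 and C19orf43. In the targets where it does, it counts many of the same ends as the main-start share and is not a separate result. With 3 to 9 bases the lower count was 7 of 9 (77.8%). TMED9 went from 92.6% expected to 85.8% (−6.84 points, −8.21 to −5.48), C1orf63 from 85.4% to 73.3% (−12.1, −16.99 to −7.19) and HSF1 from 77.3% to 62.4% (−14.96, −25.2 to −4.74). IRF1 went from 57.2% to 22.4% and NDUFV3 from 5.95% to 3.84%. The larger share was at C19orf43, 3.36% to 6.57% (3.22 points, 0.62 to 5.81). At RBM4 only 2.90% was expected in this range, since its main start lies 22 bases or more from the frequent alleles, and the change was −0.12 points (−0.89 to 0.65).

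Compared with deletions of 3 to 9 bases of the same targets, which share the unedited reference, the short deletions lost less of the main start in 6 of 9 targets (66.7%). The gap was 20.3 points at RBM4 (18.1 to 22.5), where the longer class had −20.0. It was 37.8 points at LETMD1 (34.1 to 41.4), where the longer class had −33.4. There 1 loss of 9 bases held 2624 of the 2935 matched ends of the longer class, and 1 allele also held most short-deletion ends. The expected share was 66.7% for the longer class and 57.0% for the short one. The gap was 18.7 points at TMED9 (16.9 to 20.5), 22.4 at C1orf63 (17.1 to 27.8), 18.6 at IRF1 (9.68 to 27.4) and 6.97 at NDUFV3 (4.25 to 9.69). C19orf43 was the 1 target (11.1%) in which the short deletions lost more, by −9.91 points against 3 to 9 bases (−13.6 to −6.26) and by −25.01 points against 10 or more (−28.5 to −21.5), whose own change was 11.2. The gap had an interval that included 0 at HSF1 (7.85 points, −7.25 to 22.95) and ECI1 (−7.97, −19.1 to 3.13).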

How the data were processed

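The deposited CRISPR-Cap list has a line per capped 5′ end. Its values, as the authors deposited them, are of other kinds than counts: genome positions and deletion lengths in bases. The submitters' processing notes name STAR and hg38; the sources used here give no versions or filters, nor whether random bases were collapsed. Positions were treated as counted from 0, and 1 was added. Because no column separates the 2 libraries, the values planned per library could not be computed. For each allele, edited ends that retain 8 or more bases upstream of the deletion were set against unedited ends at the same positions, and expected shares were averaged over alleles by edited ends. A position needed 10 ends to be used. Intervals are delta-method for targets, Wilson for shares, and score intervals for alleles, pairs, positions and the IRF1 comparison of 2 bases with 1. The upper limit given for a share of 0 is not a Wilson limit but 3 divided by the number of ends. The method was tested on simulated data in which ends were drawn independently. That test cannot show how PCR copies would affect the intervals. Every target with 50 or more members was named, with its 3 most frequent alleles and any with 100 or more ends. The members and lists were chosen with earlier results of these data known. The alternatives changed retained bases, length, alleles, positions, placement and targets. STAP-seq was not used here. Python 3.11.15, numpy 2.4.6, pandas 2.3.3, scipy 1.17.1 and matplotlib 3.10.9 were used.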

Additional observations from a re-analysis of the deposited data

How the results depend on the processing

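No paired analysis was possible because the deposited list pools the 2 libraries, and for the same reason no replicate could be left out. The median change in main-start share (−11.9 points) lay between −15.4 and −9.32 in every alternative tried. The number of targets with a lower share was 5 to 7 in place of 6, except with at least 20 retained bases, where it was 2 of the 3 that could be measured. None of the alternatives changed the choice of main start, on which the lower calls at NDUFV3 and C19orf43 rest. The range therefore does not cover that choice. The median upstream shift (1.27 bases) was less stable: −1.08 with at least 20 retained bases, 0.091 with 1 base only, 2.18 with 2 bases only, 0.65 with positions of 50 or more ends and 0.69 with targets of 100 or more unedited ends. The median change in the share of starts 8 to 19 bases upstream (−2.12 points) was −6.40 with 2 bases only and −7.52 without the most frequent alleles, and it shrank to −0.76 with at least 12 retained bases and −1.17 with 1 base only. Among the targets whose interval excluded 0, the direction turned at ECI1 with 2 bases only (0.34 points), and at LETMD1 with at least 12 retained bases (−1.16), with 2 bases only (−3.94) and without its most frequent allele (−5.42). At HSF1 and RBM4, whose intervals included 0, the sign also varied between settings, up to 2.39 points at HSF1 with equal weight and down to −3.19 at RBM4 with 2 bases only. The cause was not tested. Placing movable deletions nearest the start changed no call. The score interval for targets and the omission of TMED9 were tried after seeing the data and changed no call either; without TMED9, 5 of 8 targets were lower.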
